A study of Mus musculus with 6 samples.

Results

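The transcriptome described here is that of HT22 cells that received vehicle in place of doxycycline, as measured by RNA-seq in 3 libraries (vehicle replicates 1 to 3) of the 6 in the series. They were taken by their label, with all 29493 genes of the deposited count table, and the 3 libraries given doxycycline entered no value below. The labels give the line as HT22-TR/TO-V5Klf13-1, a stable derivative of the mouse hippocampal line HT22 that carries a V5-tagged Klf13 transgene held off by the tet repressor. It was grown in high-glucose medium with 10% fetal bovine serum, with a treatment time of 8 hr given for the doxycycline (1 ug/ml) that the other libraries received, and total RNA was extracted. The vehicle cells therefore shared the transgene with the treated ones, and the name of the line shows one derivative, so the values describe it and not the parent HT22 line, which was not measured. The labels do not say whether the 3 libraries came from separate cultures, so the spread given as SD may be technical.

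HT22 is an immortalised line that is widely used as a model of hippocampal neurons, above all of the oxidative death that glutamate causes when it blocks cystine uptake and depletes glutathione. A mature hippocampal neuron makes synaptic vesicle proteins, ionotropic glutamate and GABA receptors, voltage-gated channels and neuron-specific cytoskeletal proteins, and has left the cell cycle. Mesenchymal cells such as fibroblasts instead secrete collagens and fibronectin, build vimentin filaments and divide in culture. Which of these programmes the line expressed is what the gene lists below describe.

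The libraries held 38566798, 42960225 and 52930384 counts. A level is given as CPM (counts per 1000000 counts), which scales a count by its library's total, or as TPM, the same after division by transcript length. Genes are compared with each other mostly as TPM. Where they are set side by side in CPM, as for the highest genes and the HOX genes, transcript length also enters the comparison. A gene was taken as detected at 1 CPM or more in each library, as at the floor at 3 counts or fewer in each (0.0778, 0.0698 and 0.0567 CPM, which is also the limit that a count of 0 allows), and as low in between. By this rule 14202 of 29493 genes (48.2%) were detected, 8343 were low and 6948 were at the floor. Of the 15902 protein-coding genes 68.4% were detected, and this is the share against which the lists of coding genes should be read. Of the 2066 symbols on the 75 lists 1633 were measured, and the other 433 were not analysed here. The table lists no gene with 0 counts in all 6 libraries, so each share is of the measured members. A gene that leads a list does so by its mean TPM with the longest annotated transcript as its length. Of 673 pairs of neighbours in the lists whose ranges over the libraries did not overlap, 113 changed order with the union of exons as length and 149 with the median transcript.

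The 3 libraries were close to each other. Pearson's r of log2(CPM + 1) across genes, which share each library and are not independent replicates, was 0.997 for each pair, and the common biological coefficient of variation from edgeR was 10.5%. No 2 libraries were copies of each other, since the chi-square of their counts per degree of freedom was 12.5 to 13.8. Among 10154 genes with a mean of at least 10 CPM, the highest library was typically 1.07 times the lowest (median), and it was at least 2 times the lowest for 137 of them.

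No single gene dominated the counts. The 10 highest genes took 4.79% ± 0.0497 (SD, n = 3) of them, the highest 1000 took 48.0% ± 0.0816, and 1111 genes held 50% of the total. Mitochondrially encoded genes took 3.72% ± 0.0644 and the 81 genes of cytosolic ribosomal proteins 5.15% ± 0.236. The highest nuclear protein-coding genes by CPM were Eef1a1, which delivers aminoacyl-tRNA to the ribosome, at 5076, 5012 and 5086 CPM, and Col1a2, a chain of type I collagen, at 4923, 5098 and 4815 CPM. They were followed by Eef2, the translocation factor of the ribosome, at 4512, 4428 and 4397 CPM, by the chaperone Hsp90ab1 at 3012, 2932 and 2954 CPM and by nucleolin, Ncl, at 2742, 2823 and 2879 CPM. Rbbp7, a histone-binding chaperone, lay at 2739.7, 2762 and 2723 CPM. Collagen genes thus stood among the translation factors at the top of the table, with Col1a1 17th and Col3a1 18th in order of CPM.

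Per length, with the longest transcript as length, the highest nuclear coding gene was S100a4, a small calcium-binding protein typical of fibroblasts, at 7762, 7338 and 7914 TPM. With the median transcript as length, Eef1a1, at a mean of 7944 TPM, exceeded S100a4 at 6582 TPM. Galectin-1, Lgals1, reached 6283, 5798 and 6028 TPM, Eef1a1 5259, 5342 and 5283 TPM and S100a6 3869.8, 3506 and 3889 TPM. Each of these genes kept its level within a narrow range over the libraries. S100a4 shares 302 exonic bases with Gm42674, a predicted gene, and the counting is not stated to use strand, so its reads and those of that model cannot be told apart.

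The core promoters of 5 genes at or near the top of their lists are shown because they include start regions with and without the letters TATAAA, the core of the TATA box that positions RNA polymerase II. Each stretch runs from 60 bases before to 20 bases after the transcription start listed by RefSeq (build GRCm38.p6), 5′ to 3′ on the gene's strand, with the letters TATAAA in capitals where they begin 40 to 20 bases before the start. S100a4 lies at chr3:90603710-90603789 (plus strand), Vim at chr2:13574251-13574330 (plus), Piezo1 at chr8:122551310-122551389 (minus), Col1a2 at chr6:4505558-4505637 (plus) and Eef1a1 at chr9:78481705-78481784 (minus).
S100a4: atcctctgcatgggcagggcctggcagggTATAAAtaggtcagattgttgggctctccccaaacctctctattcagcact
Vim: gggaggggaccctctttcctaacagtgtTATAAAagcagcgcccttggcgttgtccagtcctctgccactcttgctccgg
Piezo1: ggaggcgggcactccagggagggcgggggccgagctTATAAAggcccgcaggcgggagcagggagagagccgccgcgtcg
Col1a2: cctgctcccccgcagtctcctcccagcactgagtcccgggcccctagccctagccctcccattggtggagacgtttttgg
Eef1a1: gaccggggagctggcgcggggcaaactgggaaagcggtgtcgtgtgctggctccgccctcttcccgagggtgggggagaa

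The letters TATAAA began at -31 in S100a4, at -32 in Vim and at -24 in Piezo1, and did not occur in this window of Col1a2 or Eef1a1. Over the 9767 protein-coding genes with a single RefSeq promoter entry, read on the gene's strand, 1.88% held TATAAA in that window. The share was 0.854% of the 6793 detected genes, 3.93% of the 1754 low genes and 4.67% of the 1220 genes at the floor, and 4.5% (9 genes) of the 200 genes with the highest TPM. Counted on both strands of the whole 300 bases (250 before and 50 after the start), it was 6.26% for detected genes and 20.5% for genes at the floor. The dinucleotide CG, which reads the same on both strands, occurred a median of 22 times per 300 bases in promoters of detected genes, 7 times in those of low genes and 4 times in those of genes at the floor. Detected genes as a group thus had CG-rich start regions. S100a4, with 2 CG, was as poor in them as the genes at the floor, while Eef1a1 had 22. These are descriptions of letters in a window placed by the start that RefSeq lists, with no test. Whether these cells start transcription there was not tested for any of the genes. A window without the letters therefore does not show a promoter without them. Col1a1 and Lgals1 had no entry.

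The line matched its label of a neuronal cell only in part. Of the neuronal markers 11 of 25 were detected (median 0.367 TPM), 9 were low and 5 at the floor, and of the fibroblast and mesenchymal markers 37 of 39 were detected (median 84.1 TPM). Both shares stand beside 68.4% of all protein-coding genes. The members of the neuronal list together reached 752 to 801 CPM over the libraries and those of the mesenchymal list 27947 to 28447 CPM. These sums are corrected neither for transcript length nor for the number of genes on a list. In bulk RNA, few cells with a marker and little marker RNA in every cell cannot be told apart.

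The highest neuronal markers are genes also known from other cells. Dpysl3, a collapsin response mediator that binds tubulin, was highest at 128, 136 and 129 TPM, followed by the glycoprotein Thy1 at 78.5, 80.6 and 85.4 TPM, the beta-III tubulin gene Tubb3 at 59.3, 60.3 and 59.1 TPM and the adhesion molecule Ncam1 at 45.4, 49.2 and 45.7 TPM. Tubb3 (chr8:123411424-123422015, plus strand) was stable over the libraries, at 59.6, 58.9 and 59.3 CPM. More restricted markers were detected at lower levels, such as the RNA-binding proteins Celf4 and Elavl2 at means of 10.3 and 6.11 TPM, and those of neurites were near the limit of counting. Map2, the dendritic microtubule protein, had 10, 6 and 6 counts, the axonal tau gene Mapt reached a mean of only 0.108 CPM, and the growth cone protein Gap43 0.132 CPM. The RNA-binding protein Elavl4 and the ubiquitin hydrolase Uchl1 had 0 counts in each library. Rbfox3, which encodes the nuclear antigen NeuN, was not analysed here.

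Fate markers of neuron types were likewise mostly low or at the floor. Of the glutamatergic markers 1 of 8 was detected. The vesicular glutamate transporter Slc17a7 had 6, 8 and 6 counts. Of the GABAergic markers 3 of 12 were detected, the homeobox genes Dlx2 at 17.6, 18.5 and 18.8 TPM, Lhx6 at 7.32, 8.07 and 9.35 TPM and Dlx1 at 5.94, 3.12 and 3.84 TPM, while Gad2, which makes GABA, reached 0.113 CPM. Among monoaminergic, cholinergic and peptidergic markers only the vesicular monoamine transporter Slc18a2 was detected, 1 of 11, at 3.22, 3.15 and 2.92 TPM.

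Of the transcription factors of the hippocampus and cortex 16 of 26 were detected. The nuclear factor I genes Nfix and Nfib led at 45.3, 49.4 and 45.0 TPM and 27.8, 29.6 and 28.9 TPM, followed by Rest, a repressor of neuronal genes in non-neuronal cells and progenitors, at 20, 23.6 and 21.6 TPM. Zbtb20, which marks developing hippocampal pyramidal neurons, had 33.9, 44.2 and 23.3 CPM. Prox1, the dentate granule cell factor, had 0 counts in each library, Bcl11b and Mef2c had means of 0.0688 and 0.0173 CPM, and Tbr1 0.173 CPM. Of the hippocampal subfield markers 4 of 14 were detected, led by the neuritin gene Nrn1 at 49.3, 53.2 and 48.5 TPM.

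Progenitor markers were split. Of the list 19 of 24 were detected, led by vimentin (Vim) at 1592, 1509 and 1565 TPM, by the chromatin protein Hmga1 at 324, 316 and 323 TPM and by the differentiation inhibitors Id1 at 159.8, 148 and 157 TPM and Id3 at 154, 147 and 149 TPM. The neuroepithelial filament gene Nes had 11, 8 and 11 counts, and the Notch target Hes5 was at a mean of 0.0346 CPM. Olig2 and Sox2 were not analysed here. The filament partners were far apart, with a ratio of Vim to Nes of 23039 ± 4071 (SD, n = 3) with the longest transcript as length and of 10868 and 27311 with the union of exons and the median transcript.

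Markers of the other cell types that a brain culture can hold were detected in part. Of astrocyte markers 5 of 12 were detected, led by the gap junction gene Gja1 (163, 46.8 and 34.2 CPM, a 4.76-fold range over the libraries), Sox9 at 22.8, 24.8 and 24.0 TPM and the glutamate transporter Slc1a3 at 16.2, 17.7 and 16.8 TPM, while Gfap had 4, 6 and 9 counts and the transporter Slc1a2 a mean of 0.0189 CPM. Of oligodendrocyte lineage markers 3 of 10 were detected, led by Cspg4 and Pdgfra at 42.1, 46.1 and 42.2 TPM and 13.5, 14.5 and 13.8 TPM, with the myelin genes Mbp and Mog at means of 0.239 and 0.132 CPM and the factor Sox10 at the floor. Of microglia and leukocyte markers 5 of 12 were detected, led by Tmem119 at 24.4, 26.2 and 23.9 TPM and Cd14 at 17.8, 18.4 and 17.1 TPM, and the leukocyte phosphatase Ptprc was at 1.87, 1.97 and 1.98 TPM, whereas Csf1r and Aif1 had means of 0.19 and 0.16 CPM and Cx3cr1 and P2ry12 were at the floor. Of epithelial markers 2 of 13, of endothelial and pericyte markers 2 of 11, and of ependymal and choroid plexus markers 1 of 5 were detected, the last being the water channel Aqp1. The keratin Krt8 and the endothelial claudin Cldn5 had 0 counts, and Pecam1 a mean of 0.401 CPM. Each of these lists thus had defining genes that were low or at the floor. Summed over the list, astrocyte markers came to 151 to 276 CPM, oligodendrocyte lineage markers to 237 to 251 CPM and microglia and leukocyte markers to 57.7 to 58.5 CPM. The part of such cells in these levels was not tested.

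**Figure D1:**
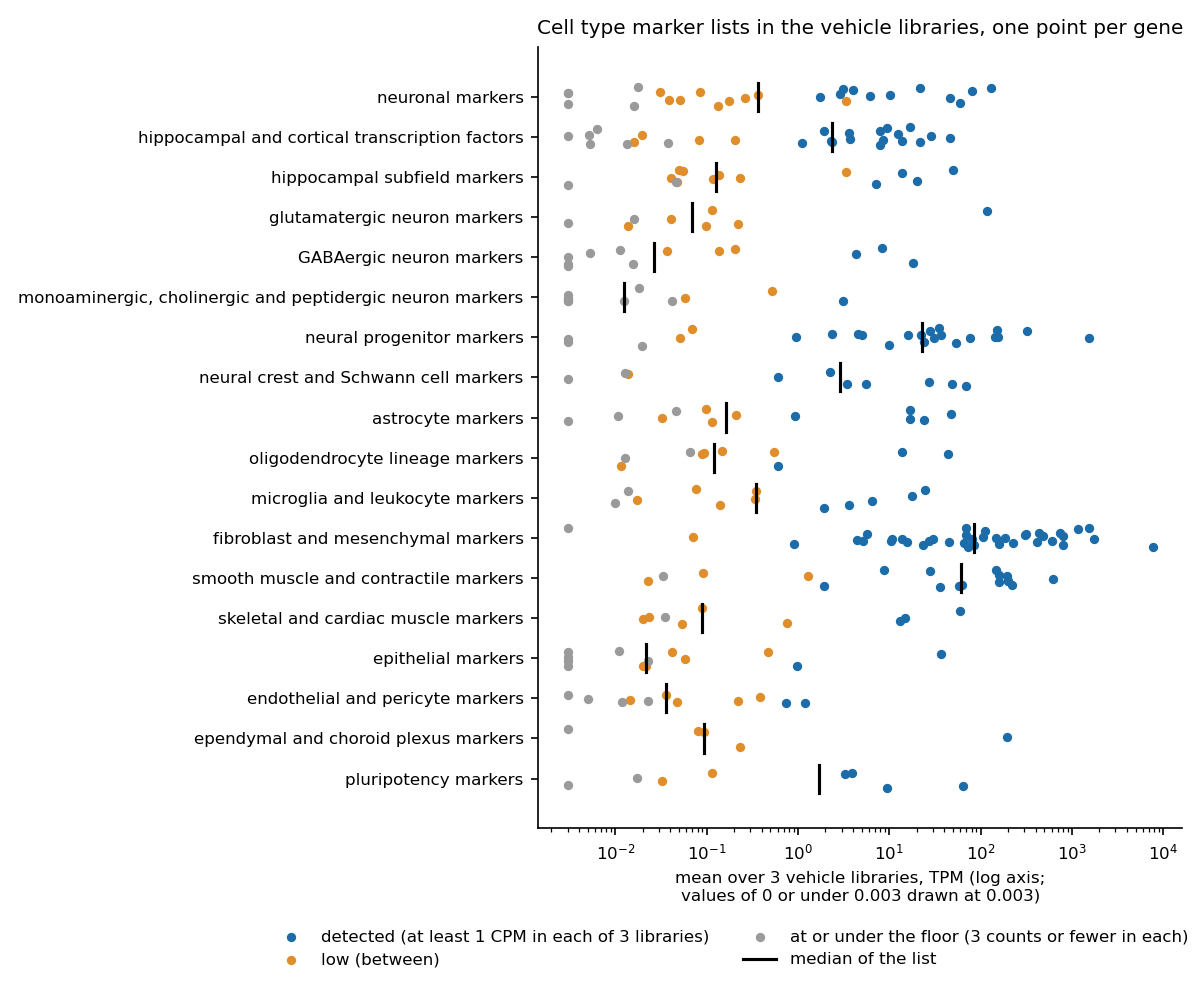
Mean level per length (TPM, log axis) of each measured gene of 18 cell type marker lists over the 3 vehicle libraries, coloured by whether the gene was detected, low or at the floor, with the median of each list as a black bar. The fibroblast and mesenchymal list has its median at 84.1 TPM, and the neuronal list at 0.367 TPM with 11 of its 25 genes detected.

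Fibrillar collagens, a collagen chaperone and the crosslinking enzyme Lox were expressed at high levels. Per length, Col1a2 reached 1711, 1823 and 1678 TPM, the matrix glycoprotein Sparc 1182, 1189 and 1147 TPM, Col3a1 795, 816 and 783 TPM and Col1a1 775, 834 and 783 TPM. The order of the collagens depends on the transcript length used, since the ratio of Col1a2 to Col1a1 was 2.18 ± 0.0337 (SD, n = 3) with the longest transcript but 1.04 and 3.76 with the union of exons and the median transcript. The collagen chaperone Serpinh1 was at 441, 407 and 407 TPM and the crosslinking oxidase Lox at 418, 466 and 439.9 TPM. The mesenchymal transcription factors Twist2, Prrx1 and Snai2 reached means of 84.1, 69.8 and 69.1 TPM, and Twist2 shares 1477 exonic bases with Gm29100. The 2 listed genes that were not detected were the lysyl oxidase Loxl2 (0.202 CPM) and the proteoglycan Lum, with 0 counts. Decorin (Dcn), a marker of resting fibroblasts, was detected at only 5.02, 5.09 and 5.55 TPM.

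Contractile genes were split in the same way. Of the smooth muscle list 14 of 18 were detected, among them Tagln2 at 634, 611 and 602 TPM, smooth muscle actin Acta2 at 201, 195 and 204 TPM, Tpm1 at 199, 206 and 199.7 TPM and Cyr61, a matricellular target of YAP and SRF, at 218, 224 and 223 TPM. The markers of differentiated smooth muscle were low: Cnn1 had a mean of 0.0422 CPM, Myh11 0.08 CPM and Tagln 1.09 CPM. Of 9 measured genes of skeletal and cardiac muscle 3 were detected, and all 3 are cardiac genes: troponin Tnnt2 at 61.8, 58.3 and 59.4 TPM and the factors Nkx2-5 at 14.7, 14.9 and 15.0 TPM and Gata4 at 13.0, 14 and 12.1 TPM. Of pluripotency markers 4 of 8 were detected, all of them KLF factors or the T-box factor Tbx3 that are also made elsewhere, and Pou5f1 was at the floor. Of neural crest and Schwann cell markers 7 of 10 were detected, with Snai2 first and Ets1 next at 51.8, 48.3 and 46.5 TPM, and with Sox10, Foxd3 and Ngfr low or at the floor. Of the cadherins, N-cadherin (Cdh2) had 89.3, 90.3 and 90.9 CPM and E-cadherin (Cdh1) 2.54, 2.47 and 1.81 CPM, and their ratio was 37.2 ± 7.56 (SD, n = 3) with the longest transcript as length and 22.5 and 35.1 with the union of exons and the median transcript.

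HOX genes, which record position along the body axis and are silent in the normal forebrain, were detected in each of the 4 clusters. Of the 24 measured HOX genes 16 were detected, a share close to the 68.4% of all protein-coding genes. In the Hoxa cluster Hoxa2 lay at 4.91 CPM and Hoxa7 at 25.7 CPM, with Hoxa9 at 0. In the Hoxc cluster Hoxc4, Hoxc5 and Hoxc6 lay at 6.49, 6.97 and 19.0 CPM, and Hoxc8 and Hoxc9 were at the floor. In the Hoxd cluster Hoxd3 was at 6.82, 2.33 and 2.80 CPM and Hoxd4 at 7.13, 7.68 and 7.54 CPM. The more posterior Hoxd8 was at 34.2, 31.8 and 33.6 CPM and Hoxd9 at 23.8, 23.0 and 22.2 CPM. Hoxd13 was at the floor, and Hoxd10, Hoxd11 and Hoxd12 were not analysed here. In the Hoxb cluster Hoxb6 was highest at 11.1 CPM. The detected genes therefore ended at paralog group 7 in Hoxa, 6 in Hoxb and Hoxc and 9 in Hoxd among the genes measured. Neighbouring HOX genes share exons and antisense transcripts in the annotation, so small differences between them are uncertain: Hoxa7 shares 586 exonic bases with Hoxaas3.

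**Figure D2:**
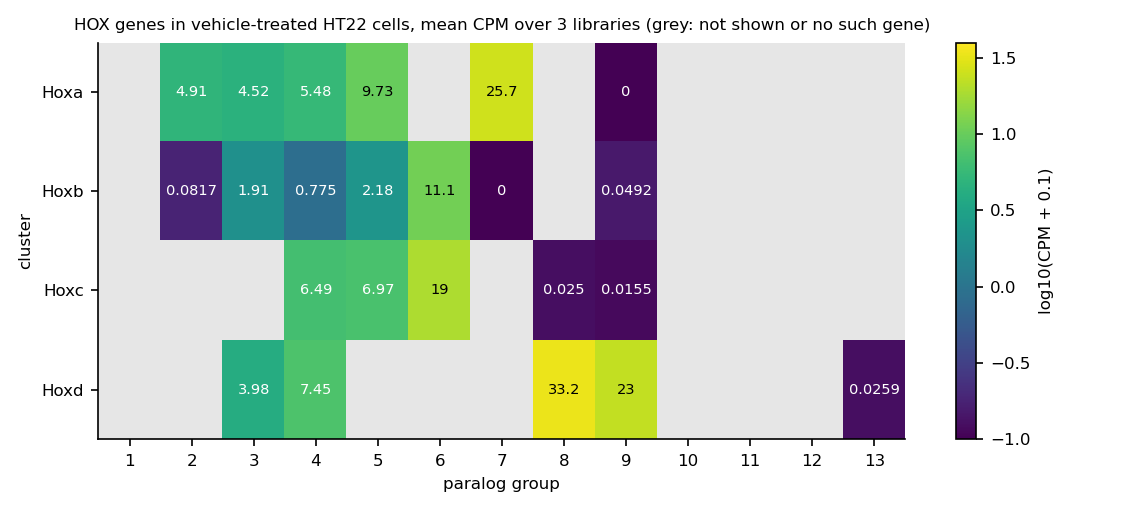
Mean CPM over the 3 vehicle libraries of the HOX genes shown, by cluster (rows) and paralog group (columns), coloured on a log10 scale, with grey where a gene does not exist or is not shown. Among the genes measured, the last detected one is of group 7 in Hoxa, group 6 in Hoxb and Hoxc, and group 9 in Hoxd (Hoxd9, 23.0 CPM).

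Other patterning factors of limb, body wall and skull mesenchyme accompanied them. Of the whole list of HOX and patterning genes 40 of 55 (72.7%) were detected, beside 68.4% of all protein-coding genes. The list was led per length by the T-box gene Tbx15 at 26.7, 30.3 and 27.8 TPM, Foxf2 at 24.6, 25.8 and 25.0 TPM, Hoxa7 and Hoxd8. The midbrain and limb factor En1 was at 20.8, 19.7 and 20.1 TPM, the limb homeobox gene Shox2 at 20.4, 16.7 and 18.2 TPM and the bone factor Runx2 at 12, 12.5 and 15.0 TPM. These 3 were chosen after their values were seen. Factors of brain regions were mixed. Six3, Lmx1a and Nkx6-1, of the ventral forebrain and midbrain on the same list, were at the floor, whereas En1 was detected. The homeobox genes Dlx2, Lhx6 and Dlx1 of the GABAergic list were also detected, as given above.

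Synaptic genes divided by how widely they are used in the body. Of the broadly expressed membrane fusion genes 18 of 19 were detected (median 25.5 TPM), against 14 of 27 of the presynaptic genes (median 0.265 TPM) and 14 of 28 of the postsynaptic ones (median 1.18 TPM). The presynaptic gene that led was Vamp2, a vesicle fusion protein, at 76.2, 78.5 and 77.9 TPM. Synapsin 1 (Syn1) was detected at 6.03, 6.76 and 6.06 TPM, whereas the vesicle proteins synaptophysin (Syp) and synaptotagmin 1 (Syt1) had means of 0.237 and 0.68 CPM. The fusion protein Snap23, found in most tissues, stood at 75.3 ± 8.13 times (SD, n = 3) the level of Syt1 per length. On the postsynaptic side the pentraxin receptor Nptxr led at 60, 70.9 and 60.6 TPM, followed by the scaffold Dlg1 at 28.4, 30.6 and 28.2 TPM and the kinase Camk2d at 25.4, 27.6 and 19.6 TPM, while the neuronal isoform Camk2a was 112 ± 14.7 times (SD, n = 3) lower per length with the longest transcript as length and 40.6 and 40.7 times lower with the union of exons and the median transcript. Nptxr shares 890 exonic bases with Npcd, so its level is uncertain. Activity-regulated Arc and Npas4 were low, at means of 0.562 and 0.391 CPM.

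Few neurotransmitter receptor genes were detected. Of ionotropic glutamate receptor genes 4 of 15 were detected, of metabotropic ones 0 of 3, of GABA and glycine receptor genes 1 of 13, of acetylcholine receptor genes 2 of 13 and of monoamine receptor genes 0 of 14. Grin1, the subunit that NMDA receptors require, had 0, 4 and 0 counts and the AMPA subunit Gria2 0, 0 and 4 counts. Grin2b was not analysed here. The 4 glutamate receptor genes detected were the kainate subunit Grik2 at 6.53, 7.40 and 7.35 TPM, the delta subunit Grid1 at 2.76, 3.00 and 2.83 TPM and the NMDA subunits Grin2d at 1.61, 1.51 and 1.78 TPM and Grin3b at 0.852, 0.935 and 0.836 TPM. Grin2d shares 643 exonic bases with Gm45441 and Grin3b 1059 exonic bases with Tmem259, so their levels are uncertain. Of the GABA receptors only Gabbr1 was detected, at 21.3, 23.0 and 21.6 TPM, with its partner subunit Gabbr2 at 0 counts.

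Among receptors for purines, lipids, proteases and chemokines were several at higher levels. Of purine receptors 5 of 14 were detected, led by P2rx3, an ATP-gated channel best known from sensory neurons, at 56.7, 68.6 and 55.5 TPM. The adenosine receptor Adora2b followed at 8.80, 9.65 and 9.01 TPM. P2rx3 shares 51 exonic bases with Ssrp1, which encodes a subunit of a histone chaperone, and the share of its reads that lies there was not tested. Of the receptors for lipid mediators, proteases and chemokines 11 of 23 were detected: the thrombin receptor F2r was first at 102, 112 and 106 TPM, then the lysophosphatidic acid receptor Lpar1 at 46.0, 49.5 and 46.6 TPM, the atypical chemokine receptor Ackr3 at 34.7, 40.5 and 37.6 TPM and the sphingosine phosphate receptor S1pr1 at 15.6, 17.8 and 16.3 TPM. Lipid and protease receptors of this kind respond to components of serum. Of the peptide, opioid and cannabinoid receptors 4 of 23 were detected, among them the calcitonin-like receptor Calcrl at 6.76, 7.19 and 6.81 TPM and the bradykinin receptor Bdkrb2 at 1.28, 1.20 and 1.15 TPM.

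**Figure D3:**
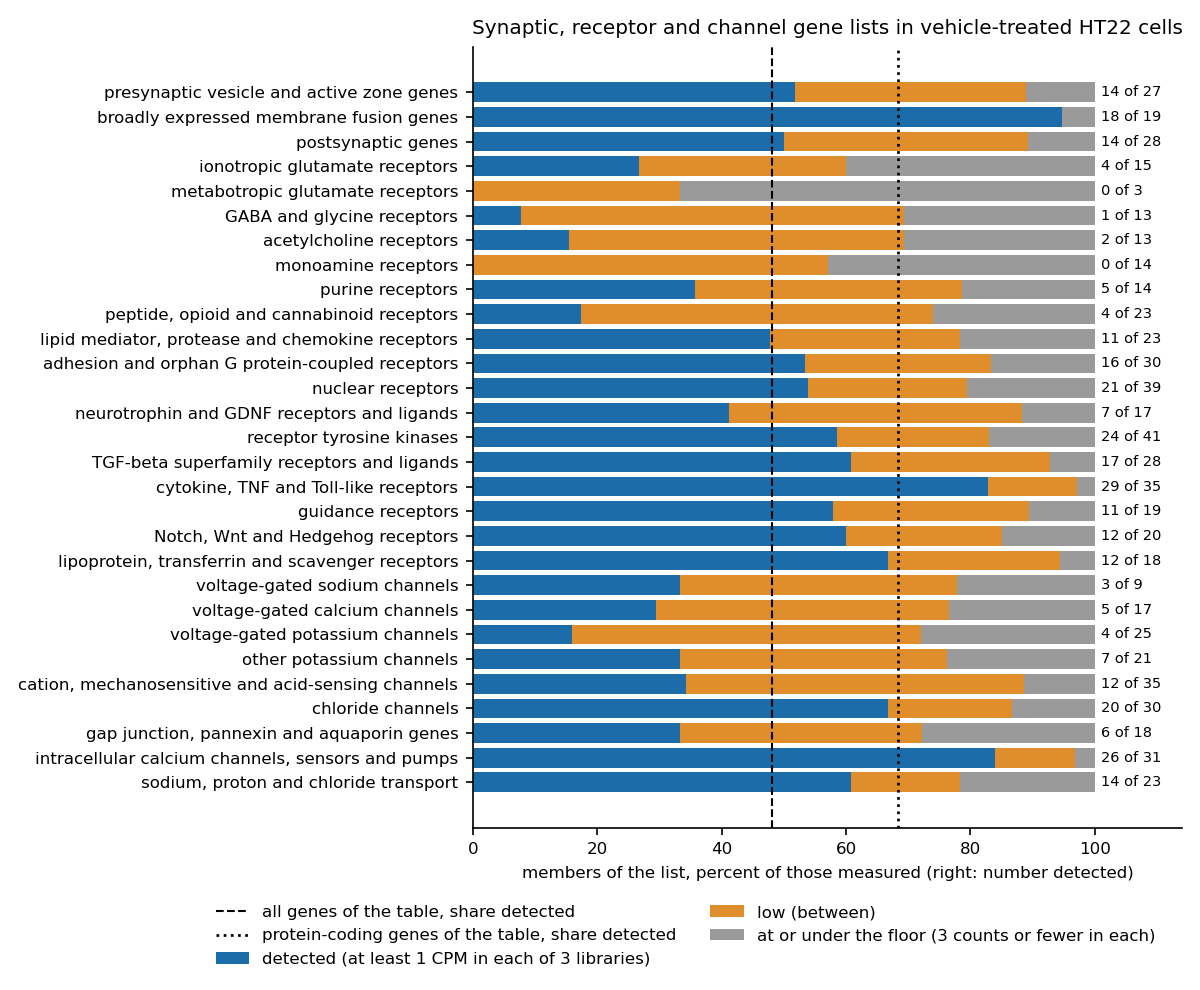
Share of the measured members of each synaptic, receptor and channel list that were detected, low or at the floor in the 3 vehicle libraries (bars, percent, summing to 100), with the share detected among all genes of the table (48.2%) as a dashed line, the share among its protein-coding genes (68.4%) as a dotted line and the number detected at the right. Membrane fusion, cytokine receptor and intracellular calcium lists lie above both lines, and monoamine and metabotropic glutamate receptors have no detected member.

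The growth factor receptors with the highest levels are ones known from mesenchymal and epithelial cells. Of the receptor tyrosine kinases 24 of 41 were detected, with the GAS6 receptor Axl first at 267, 285 and 266 TPM, the collagen receptor Ddr2 at 152, 169 and 159 TPM, Ryk, a WNT co-receptor, at 118, 124 and 119 TPM and Epha2 at 83.4, 85.3 and 82.9 TPM. The epidermal growth factor receptor Egfr was low, at a mean of 0.933 CPM. The BDNF receptor Ntrk2 had 4, 2 and 4 counts and the neurotrophin receptor Ngfr 0, 0 and 4 counts, so neither was detected, and of the neurotrophin receptors only Ntrk3 was, at 0.183, 0.178 and 0.172 TPM. Ligands on the joint list of neurotrophin and GDNF genes were detected, among them Bdnf at 19.5, 20.7 and 21.4 TPM. Gdnf, which is not a neurotrophin, was at 8.91, 9.79 and 9.26 TPM. Bdnf shares 896 exonic bases with Gm45346, so its level is uncertain. Cytokine, TNF and Toll-like receptors were detected in 29 of 35, led by the TWEAK receptor Tnfrsf12a at 536, 523 and 545 TPM and the lymphotoxin receptor Ltbr at 85.4, 84.6 and 85.2 TPM. Tlr4 varied widely, with 44.6, 7.15 and 50.3 CPM.

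Receptors of developmental pathways were also detected. Of the guidance receptors 11 of 19 were, with the semaphorin receptors Plxnb2 at 98.6, 104 and 97.0 TPM, Nrp2 at 59.4, 70.3 and 66.4 TPM and Plxna1 at 57.7, 67.6 and 61.6 TPM, while the Slit receptor Robo1 had a mean of 0.155 CPM. The Hedgehog transducer Smo reached 70.8, 73.7 and 72.6 TPM and the WNT receptor Fzd2 50, 48.4 and 47.7 TPM. Of the TGF-beta family 17 of 28 were detected, led by the latent TGF-beta binding protein Ltbp3 at 79.8, 82.6 and 79.5 TPM. Of adhesion and orphan G protein-coupled receptors 16 of 30 were detected, Smo among them and the latrophilin Adgrl2 next at 56.7, 60.7 and 57.8 TPM, and of lipoprotein, transferrin and scavenger receptors 12 of 18, with Lrp1 at 146, 168 and 154 TPM.

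Of the nuclear receptors 21 of 39 were detected. The retinoic acid receptor Rarg led at 90.5, 90.9 and 89.0 TPM, followed by the orphan receptor Nr2f2 at 39.0, 59.8 and 44.1 TPM. Nr2f6 at 38.7, 37.8 and 37.2 TPM and Rxrb at 36.5, 37.9 and 38.8 TPM came next, with ranges that overlap. The glucocorticoid receptor Nr3c1 (chr18:39410545-39519421, minus strand) had 83.7, 91.1 and 86.2 CPM against 0.959, 0.815 and 0.642 CPM of the mineralocorticoid receptor Nr3c2, which in hippocampal neurons is abundant. Per length Nr3c1 was 102 ± 21.6 times Nr3c2 (SD, n = 3) with the longest transcript and 91.0 and 193 times with the union of exons and the median transcript. The thyroid hormone receptor Thra had 49.0, 48.5 and 46.6 CPM and Thrb 4, 15 and 8 counts, and Thra shares 263 exonic bases with Nr1d1. The estrogen receptor Esr2 had 0 counts in each library, and Esr1 was not analysed here.

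Channels of electrical excitability were sparse. Of voltage-gated sodium channel genes 3 of 9 were detected, with the embryonic pore gene Scn3a at 4.6, 5.89 and 4.80 TPM and Scn2a at 0.647, 0.707 and 0.65 TPM among them. Of calcium channel genes 5 of 17 were detected, led by the auxiliary subunit Cacnb3 at 56.5, 54.9 and 54.9 TPM and Cacna2d1 at 4.89, 5.58 and 4.56 TPM. The pore subunits Cacna1a and Cacna1c were at 3.20, 5.17 and 2.91 TPM and 1.49, 1.92 and 1.64 TPM. The highest subunit was thus one that forms no pore. Of voltage-gated potassium channel genes 4 of 25 were detected, again led by an auxiliary subunit, Kcnab2, at 23.5, 23.5 and 21.9 TPM, with the pore gene Kcnh2 next at 1.62, 1.85 and 1.68 TPM. Of other potassium channels 7 of 21 were detected, the calcium-activated channel Kcnn4, known from dividing and immune cells, being first at 46.0, 47.2 and 49.0 TPM and the stretch-sensitive leak channel Kcnk2 at 9.61, 9.38 and 9.38 TPM.

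The channels highest per length are ones known from non-excitable tissues. The mechanosensitive channel Piezo1 led its list (12 of 35 detected) at 78.7, 82.7 and 77.2 TPM, with the polycystin Pkd2 at 43.6, 48.2 and 46.8 TPM, Tmem63a at 39.7, 39.7 and 39.5 TPM and the kinase channel Trpm7 at 40.5, 36.9 and 40.9 TPM. Piezo1 shares 2441 exonic bases with Ctu2, an overlapping gene. Of chloride channel genes 20 of 30 were detected, led by the intracellular proteins Clic1 at 508, 499 and 513 TPM and Clic4 at 149.8, 158 and 149 TPM. Among gap junction and aquaporin genes 6 of 18 were detected, with the water channels Aqp1 at 187, 202 and 191 TPM and Aqp5 at 46.1, 47.0 and 44.3 TPM. Of the intracellular calcium genes 26 of 31 were detected, led by calmodulin Calm2 at 351, 364 and 372 TPM and the mitochondrial porin Vdac1 at 259.6, 275 and 279 TPM. The skeletal muscle release channel Ryr1, chosen after its values were seen, was at 12.9, 13.4 and 13.2 TPM, with Ryr2 at the floor.

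Among chloride transporters, the importer found in most tissues exceeded the neuronal exporter. Of the sodium, proton and chloride transport genes 14 of 23 were detected. The sodium pump's beta subunit Atp1b3 was at 154, 155 and 156 TPM, while Atp1b1 had a mean of 0.0252 CPM. The chloride importer Slc12a2 stood at 35.1, 38 and 37.8 TPM and the neuronal chloride exporter Slc12a5, which lowers chloride in mature neurons, at 0.208, 0.162 and 0.304 TPM.

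**Figure D4:**
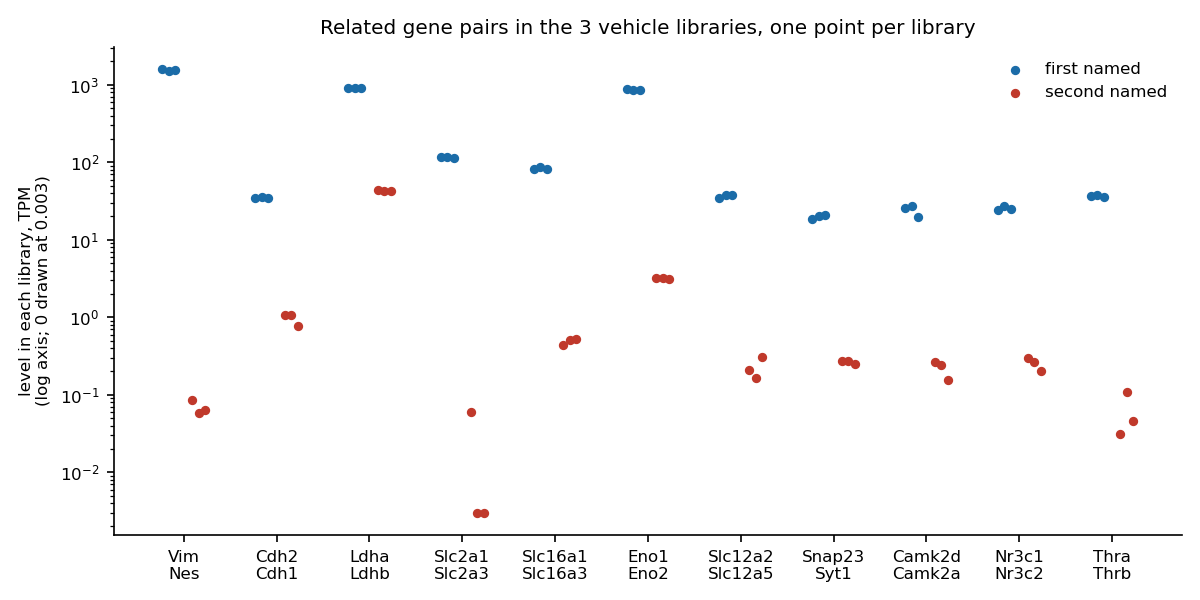
Level per length (TPM, log axis) of 11 pairs of related genes in each of the 3 vehicle libraries, the first named gene of a pair in blue and the second in red, with a value of 0 drawn at the bottom. In every pair the 3 libraries of the first gene lie above the 3 of the second, the closest pair being Ldha and Ldhb with a mean ratio of 21.5 with the longest transcript as length.

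In glucose metabolism, too, the glucose transporter and the enolase used in most tissues exceeded the neuronal forms. The glucose transporter Slc2a1 had 203, 197 and 199 CPM, and the neuronal transporter Slc2a3 5, 0 and 0 counts. Of the glycolysis list 22 of 27 were detected, led by pyruvate kinase Pkm at 1313, 1367 and 1271 TPM, lactate dehydrogenase Ldha at 918, 923 and 915 TPM, Eno1 at 892, 867 and 847 TPM and Pgk1 at 749.7, 765 and 745 TPM. The ratio of Ldha to Ldhb was 21.5 ± 0.473 (SD, n = 3) with the longest transcript as length and 14.2 and 30.9 with the union of exons and the median transcript. Neuronal enolase Eno2 was 276 ± 3.22 times below Eno1 with the longest transcript and 175 and 316 times below it with the other lengths. With the counts of 2 matching pseudogenes added, an alternative chosen after seeing the data, Pgk1 came to 1198 ± 6.03 CPM (SD, n = 3) in place of 732 CPM. The ratio of hexokinases Hk1 to Hk2 was 2.21 ± 0.0863 with the longest transcript and 1.20 and 8.23 with the other lengths, so Hk1 was the higher of them by an amount that the length decides. The lactate transporter Slc16a1 was at 82.9, 87.7 and 82.8 TPM with its chaperone Bsg at 563, 528 and 534 TPM, and Slc16a3 was 173 ± 14.9 times lower with the longest transcript and 211 and 64.3 times lower with the other lengths.

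Gapdh and Aldoa, usually among the highest glycolytic genes, were at 169, 146 and 156 CPM and 2.07, 1.72 and 1.72 CPM. Gapdh has many processed copies elsewhere in the genome, which the table counts as genes of their own. With the counts of 87 matching pseudogenes added in the same way, Gapdh came to 977 ± 33.7 CPM (SD, n = 3) in place of 157 CPM. Whether the counts of such copies are reads of the parent gene was not tested. These copies are those of Gapdh. For Aldoa no such sum is given here, and the reason for its low level was not tested.

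Genes of mitochondrial oxidation were detected with few exceptions. Of pyruvate entry and citric acid cycle genes 36 of 37 were detected (median 78.5 TPM), the exception being the testis gene Pdha2. Malate dehydrogenase Mdh2 was at 583, 557 and 546 TPM and citrate synthase Cs at 343, 351 and 340.2 TPM. All 15 mitochondrially encoded genes on the list were detected, from 379 TPM for mt-Rnr1 to 12160.1 TPM for mt-Nd1. Of the isoform pairs of the respiratory chain 13 of 17 were detected. Cox6a1 was at 882, 818 and 855 TPM and Cox8a at 1008, 959.7 and 1002 TPM, and the muscle form Cox7a1 had 0 counts. Of the pentose phosphate and NADPH genes 14 of 15 were detected, led by Taldo1 at 188, 177 and 173 TPM and Pgd at 174, 168 and 174 TPM, and of those of fatty acid oxidation and peroxisomes 29 of 32, led by the fatty acid carrier Fabp5 at 390.5, 370.0 and 395 TPM and the dehydrogenase Hadh at 177, 176 and 180.2 TPM. Fabp5 came to 329.6 ± 17.7 CPM (SD, n = 3) with the counts of 5 matching pseudogenes added, in place of 203 CPM. The ketone-using enzyme Oxct1 was at 246, 252 and 246 TPM.

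The pathway that makes serine and one-carbon units was detected from end to end of its main branch. Of its list 21 of 26 were detected (median 55.0 TPM). The 3 enzymes from glycolysis to serine were Phgdh at 531, 528 and 521 TPM, Psat1 at 615, 649 and 630.4 TPM and Psph at 126, 128 and 120.2 TPM, and mitochondrial Shmt2 was at 496, 481 and 479 TPM. The glycine decarboxylase Gldc and the enzyme Cbs, which starts transsulfuration, had means of 0.145 and 0.0315 CPM, while the next enzyme of transsulfuration, Cth, was at 155, 159 and 164 TPM. Of the glutamine, glutamate and aspartate list 21 of 24 were detected, led by asparagine synthetase Asns at 380.2, 380.0 and 357 TPM, Got2 at 183, 178 and 178 TPM and the glutamine transporter Slc1a5 at 167, 173 and 169 TPM. Lipid synthesis was detected in 33 of 35 genes, led by the desaturase Scd2 at 126, 133 and 124 TPM, and purine and polyamine synthesis were represented by Atic at 307, 305 and 303 TPM and Srm at 304, 297 and 306 TPM.

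Most measured genes of cystine uptake, glutathione and ferroptosis were detected, 25 of 32. Both chains of the cystine and glutamate exchanger were detected, the heavy chain Slc3a2 at 299, 294 and 296 TPM and the light chain Slc7a11 at 19.7, 20.5 and 20.2 TPM, a ratio of 14.7 ± 0.452 (SD, n = 3) with the longest transcript as length and of 17.7 and 40.4 with the union of exons and the median transcript. Gpx4, which reduces lipid peroxides and protects from ferroptosis, was at 446, 426 and 437 TPM, and Acsl4, which loads membranes with oxidisable fatty acids, at 35.3, 36.9 and 36.3 TPM. Transcripts of the iron store ferritin were high, with Fth1 at 959, 923 and 939.9 TPM and Ftl1 at 701, 615 and 659 TPM. Lipoxygenases feature in the death pathway of this line. Of these, Alox5 had 0 counts and Alox12 a mean of 0.057 CPM, while Alox15 was not analysed here. Of antioxidant enzymes 38 of 42 were detected, led by thioredoxin Txn1 at 1389, 1327 and 1381 TPM, peroxiredoxin Prdx1 at 520.1, 643 and 654 TPM and superoxide dismutase Sod1 at 607, 566 and 608 TPM. Mt3, the metallothionein of neurons, had 0 counts, and Mt1 and Mt2 were at 138, 171 and 134 TPM and 258, 234 and 260.3 TPM.

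Genes of the dividing cell were detected without exception among those measured. All 37 measured mitosis markers, all 38 replication genes and all 32 G1 regulators were detected, with medians of 86.2, 67.7 and 27.6 TPM. Mki67 had 480.0, 527 and 493 CPM, topoisomerase Top2a 846, 881 and 849 CPM, the replicative helicase subunit Mcm3 344, 338 and 334 CPM and ribonucleotide reductase Rrm1 414, 424 and 419.9 CPM. Cyclin D1, Ccnd1 (chr7:144929931-144939925, minus strand), was at 297, 309 and 303 TPM with its kinase Cdk4 at 343, 349 and 350.5 TPM. Whether Ccnd1 exceeds Ccnd2 depends on the transcript length, since their ratio was 5.56 ± 0.0419 (SD, n = 3) with the longest transcript and 6.56 and 0.873 with the others. Ccnd1 also shares 1100 exonic bases with LTO1.

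Trp53 and genes known as its targets were detected. Trp53 had 288, 265 and 271 CPM, its target Cdkn1a, an inhibitor of cyclin-dependent kinases, 159, 151 and 155 CPM, and its inhibitor Mdm2 119, 122 and 120.1 CPM. Of the p53, damage and senescence list 33 of 37 were detected, with Plk2 at 268, 272 and 278 TPM, Phlda3 at 211, 202 and 200 TPM and Bax at 189, 184 and 188 TPM. The secreted senescence factors Il6 and Mmp3 had means of 0.0315 and 0.0598 CPM. Cdkn2a was not analysed here. All 16 measured telomerase and telomere genes were detected: the reverse transcriptase Tert at 4.51, 4.82 and 3.76 CPM, the RNA component Terc at a mean of 1.3 CPM, and the RNA-binding subunits Nhp2 at 479, 447 and 474 TPM and Dkc1 at 122, 124 and 125 TPM. The anti-apoptotic gene Bcl2l1 differed between libraries, with 49.2, 24.2 and 47.1 CPM: replicate 2 was low.

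Matrix and secreted products beyond the collagens were extensive. Of the matrix proteins 43 of 53 were detected and together took 2.61% ± 0.0497 (SD, n = 3) of all counts. The proteoglycan Bgn was at 796, 822 and 929 TPM, fibronectin Fn1 at 472, 518 and 470.3 TPM and the basement membrane protein Nid1, chosen after its values were seen, at 238, 263 and 249 TPM. The neural matrix proteoglycan Ncan had 0 counts and Acan a mean of 0.0259 CPM. Of proteases and inhibitors 24 of 31 were detected, with the inhibitors Serpinf1 at 727, 701 and 698 TPM, Timp2 at 444, 448 and 447 TPM and Timp1 at 315, 301 and 318 TPM leading. Of secreted growth factors and cytokines 28 of 50 were detected, first Csf1, the macrophage growth factor, at 221, 230.4 and 216 TPM and the monocyte chemokines Ccl7 and Ccl2 at 202, 212 and 216 TPM and 159.7, 167 and 169 TPM. The fibronectin and collagen receptor chain Itgb1 led the integrins at 536, 566 and 544 TPM. Of the list of cytoskeletal and associated genes 35 of 42 were detected, the highest after S100a4, Lgals1 and S100a6 being annexin Anxa2 at 1767, 1795 and 1750.3 TPM.

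Immediate early genes were at low levels in part. Of the list 16 of 22 were detected, led by Fosl1 at 99.6, 98.1 and 99.2 TPM, Jun at 66.4, 68.0 and 68.3 TPM, Klf4 at 64.1, 65.7 and 64.9 TPM and Klf6 at 58.3, 61.1 and 60.4 TPM, and Fos itself had a mean of 0.798 CPM. Fosl1 shares 1163 exonic bases with Ccdc85b, so its level is uncertain. Of the KLF and SP factors 15 of 22 were detected. Klf13 (chr7:63886351-63938915, minus strand), the gene the line was built to overexpress, had 36.2, 35.0 and 38.3 CPM with no doxycycline, and its close relative Klf9 had 21.1, 23.3 and 23.6 CPM. Counts per gene do not tell the transgene from the endogenous gene, so how much of the Klf13 level came from each cannot be told apart here.

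Of the sex chromosome transcripts, the X-inactivation RNA and those of the Y chromosome were low. Xist had 5, 4 and 13 counts, an RNA that shares 1980 exonic bases with Tsix, and the Y-linked genes Uty and Kdm5d means of 0.0822 and 0.0798 CPM. Their X-linked counterparts Kdm6a and Kdm5c were at 33.5 and 166 CPM. Ddx3y was not analysed here.

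A small set of genes differed widely between libraries of the same treatment. Of the 10154 genes with a mean of at least 10 CPM, 353 had a highest library at least 1.5 times the lowest. The widest gap among named genes was that of Pcdhgb8, a clustered protocadherin that shares its last exons with other genes of its cluster, with 35.8, 1.00 and 20.6 CPM, so that replicate 2 stood alone. In Tmem127, which restrains growth signalling, replicate 1 was the low library, at 7.60, 58.8 and 58.4 CPM. The ubiquitin-conjugating enzyme variant Ube2v1 and the copine Cpne1 went in opposite directions, with 61.0, 7.94 and 8.94 CPM and 14.3, 106 and 70.9 CPM. Tpbg, an inhibitor of WNT signalling, was high in replicate 3 alone, at 17.6, 20.3 and 114 CPM. Ube2v1 shares 1673 exonic bases with Gm20431, Cpne1 3755 with Gm28036 and Tpbg 898 with 9330154J02Rik, so the levels of these 3 genes are uncertain. The low and high libraries thus were not the same from gene to gene. Gja1 and Tlr4, described above, were also among the genes with the widest gaps, as were Zfp961, Zfp180, Zfp62 and Ccdc71. No label gives a batch for these libraries, and the reason for the gaps was not tested.

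**Figure D5:**
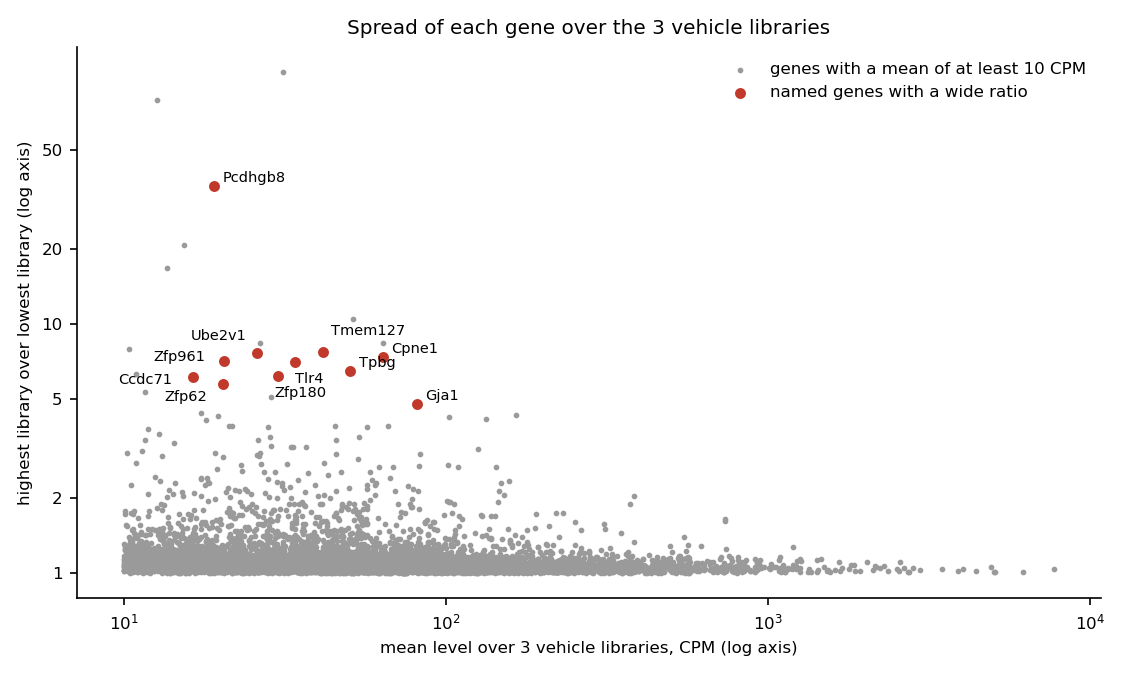
Ratio of the highest to the lowest of the 3 vehicle libraries (log axis) against the mean level in CPM (log axis) for each gene with a mean of at least 10 CPM, with named genes of wide ratio in red. Most genes lie close to a ratio of 1, the median being 1.07, and Pcdhgb8 is the highest of the named genes.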

How the data were processed

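RNA-seq counts per gene were deposited by the authors in one table for 6 libraries, of which the 3 vehicle libraries (38566798, 42960225 and 52930384 counts) were used. The submitters' processing notes name StringTie 1.3.3, HISAT2 2.1.0 and FastQC 0.11.3, along with DESeq2 and the build GRCm38. How reads were counted, with which strand setting and with which annotation, is not given in the sources used here. Total RNA libraries were made, per the labels' protocols.

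Counts were divided by the library total to give CPM, and by the longest transcript of GENCODE M21 (GRCm38) to give TPM. Of the 29493 symbols 27455 matched a gene model directly and 152 through an older symbol, and the other 1886, with 0.575% of counts, have no length. With a single group there is no comparison and no test, and with 3 libraries an exact paired permutation test could not go below p = 0.25. The spread is the SD over libraries and covers what separates them. The counting floor of 3 counts covers counting error only. Dispersion came from edgeR 4.0.16 (R 4.3.3), and its script was tested on simulated data. Tables were handled with Python 3.11.15 and pandas 2.3.3. DESeq2 1.42.0 gave alternative size factors. Pseudogene transcripts were matched to coding and mitochondrial transcripts with minimap2 2.31 at 90% identity over 50% of their length, an alternative chosen after seeing the data. Promoter sequences are from RefSeq.

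The gene lists and the choice of samples were made with earlier results of these data known. Named genes are the 20 highest by CPM and by TPM, up to 4 detected members with the highest TPM of each list with members that were low or at the floor, a fixed set (among them Klf13, Nr3c1, Slc7a11 and Mki67), and the 12 genes of at least 10 CPM with the widest ratio between libraries, leaving out predicted and clone-based names. Detected genes named outside it, after their values were seen, are Celf4, Elavl2, Ptprc, Serpinh1, Lox, Twist2, Prrx1, Dcn, En1, Shox2, Runx2, the HOX genes, Snap23, Ryr1, Slc12a2, Eno2, Slc16a3, Gapdh, Aldoa, mt-Rnr1, Psph, Cth, Mt1, Mt2, Mdm2, Ccnd2, Terc, Fn1 and Nid1. Some genes that the rule would name are not reported here. Alternatives changed the scaling, the detection limit, the transcript length and the libraries used.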

Additional observations from a re-analysis of the deposited data

How the results depend on the processing

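The number of detected genes was 14202 with CPM scaled by TMM factors or by DESeq2 size factors as well, 14252 when mitochondrial counts were left out of the total, 15446 at 0.5 CPM, 11383 at 5 CPM, 14539 at 1 TPM, 16971 by edgeR's filterByExpr, 14215 with pseudogene counts added to their parent genes and 14318 to 14320 when each library was left out in turn. Measured as TPM, the mitochondrial share was 8.54%, that of ribosomal proteins 10.4%, and those of the 10, 100 and 1000 genes ranked highest by CPM 6.96%, 22.4% and 50.8%. With pseudogene counts added, the mitochondrial share was 5.07% and the ribosomal protein share 7.82%. The nuclear genes among those 10, 100 and 1000, with no other genes put in place of the mitochondrial ones, took 2.21%, 14.1% and 46.0% of the counts outside mitochondrial genes. Nuclear pseudogenes were kept in these shares, among them Gm10925, which matched mt-Atp6 at 100% identity. The common biological coefficient of variation was 11.1% over genes of at least 5 CPM and 13.2% over all genes, and 10.2% to 11.1% when each library was left out. Of the 75 lists, the number detected stayed within 1.5 times its value for 75 with TMM scaling and in each set of 2 libraries, 72 at 0.5 CPM, 72 at 1 TPM and 63 at 5 CPM. No paired analysis was possible because a single group was described. Depth limits the lowest values: levels at or under the floor are not ordered.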

Other observations

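Genes annotated as copies of other genes were assigned a sizeable share of the counts. Pseudogenes, 5106 genes of the table, took 7.24% ± 0.172 (SD, n = 3) of the counts, and 2111 of them were detected. By sequence, 3002 pseudogenes, 1842 of the detected ones among them, matched one of 1227 coding or mitochondrial parent genes. Adding their counts to the parent raised 104 of the 1016 parents of at least 10 CPM by 1.5 times or more, and 29 of them at least 2 times. The ribosomal protein gene Rps2 stood at 1030.2 CPM alone and at 3892 ± 141 CPM with 53 pseudogenes. The chaperone Hspa8 stood at 1196 CPM alone and at 3281 ± 224 CPM with its pseudogenes, the tubulin Tuba1b at 844 CPM and 2081 ± 26.5 CPM, and the actin Actg1 at 548 CPM and 1381 ± 116 CPM. Among mitochondrial genes, mt-Atp6 stood at 3485 CPM and 7374 ± 114 CPM, and mt-Co2 at 2556 CPM and 5973 ± 41.7 CPM. These genes were chosen after their values were seen, and each SD is over 3 libraries. The predicted gene Gm10925, a nuclear copy of mitochondrial sequence by this match, was itself among the 20 highest genes by CPM. It matched mt-Atp6, and Gm28661 matched mt-Co2, at 100% identity over 100% of its length. Reads of such a copy and of its parent cannot be told apart. How reads that fit both were counted is not given, so the summed levels may count a read more than once.

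Long noncoding RNAs took 1.14% of the counts, and 753 of the 4760 measured were detected. Most of the library counts, 90.8%, came from protein-coding genes. By count 6280 genes held 90% of the total.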
